A study of Homo sapiens with 15 samples.

Results

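The genes described here encode proteins of the lysosome. They are the transcription factors TFEB and TFE3, 6 membrane proteins, 3 soluble lipid carriers or activators, 11 proteases, 9 glycosidases or sulfatases, 3 lipid hydrolases and 6 subunits or partners of the V-ATPase. The rule takes genes by their symbol and itself uses no measured value, and all 40 were found among the 18858 genes of the deposited count table. RNA came from MDA-MB-231, a human breast adenocarcinoma line in long use, here without any genetic change made for the study, in 5 groups of 3 libraries. The cells were untransfected (Control), or were transfected with a pool of siRNAs without a target (siControl), against YAP1 (siYAP), against WWTR1, which encodes TAZ (siTAZ), or with the pools against both (siYAP+TAZ), and the knockdown ran for 48 h. All cells were then kept for 5 to 6 h on gelatin before RNA extraction. The siYAP+TAZ cells received both pools and so more targeting siRNA in total, which cannot be told apart from the co-knockdown. The labels do not state which libraries share an experiment, and the p-values measure the spread between the libraries of a group.

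Lysosomes break down proteins, glycans and lipids that arrive by endocytosis and autophagy. The V-ATPase pumps protons into the lumen, where the cathepsins and other hydrolases need an acid pH, and membrane proteins such as LAMP1 and LAMP2 line the limiting membrane. TFEB and TFE3 are related helix-loop-helix factors that enter the nucleus when the kinase mTORC1 is inactive and bind an E-box with the core CACGTG near the start sites of many lysosomal genes. YAP and TAZ bind no DNA themselves and act mainly through TEAD factors, which bind the string GGAATG. Cathepsins can also be secreted by breast cancer cells and then cleave matrix proteins.

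The promoters of the members are shown first, because the E-box core is the sequence by which these genes are best known. RefSeq promoters on GRCh38.p14, from 250 bases before to 50 bases after the start site, were matched by symbol for 28 of the 40 members. The core CACGTG, which reads the same on both strands, was found in 9 of the 28, or 32.1%, against 9.76% of the 11856 promoters of genes in the count table and 7.43% of all 27305 promoters. The longer palindrome TCACGTGA, which contains the core, was found in 5 members, or 17.9%, against 1.79% and 1.04%. The string GGAATG, read on both strands, was found in 3 members, or 10.7%, against 11.3% and 14%. A match only says that the letters are present. For each of the 9 members with the core, a stretch of 30 bases upstream of the start site is printed in the direction of transcription, with the core in capitals.

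LAMP1 (chr13:113297199-113297228, plus strand): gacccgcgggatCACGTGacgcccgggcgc
CD63 (chr12:55729172-55729201, minus strand): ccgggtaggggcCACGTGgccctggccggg
CTSA (chr20:45891298-45891327, plus strand): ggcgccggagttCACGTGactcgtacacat
CTSD (chr11:1763957-1763986, minus strand): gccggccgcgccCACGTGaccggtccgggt
CTSF (chr11:66568640-66568669, minus strand): ccctgcgcgcccCACGTGcctcctgtaaac
GAA (chr17:80101538-80101567, plus strand): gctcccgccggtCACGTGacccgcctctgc
NEU1 (chr6:31862930-31862959, minus strand): atgctgcgtgatCACGTGggaggagatgag
MCOLN1 (chr19:7522571-7522600, plus strand): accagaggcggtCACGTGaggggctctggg
ATP6V0D1 (chr16:67481199-67481228, minus strand): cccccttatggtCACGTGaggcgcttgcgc

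In these stretches the core begins 28 bases before the start site in LAMP1, 180 in CD63, 25 in CTSA, 47 in CTSD, 51 in CTSF, 31 in GAA, 126 in NEU1, 41 in MCOLN1 and 59 in ATP6V0D1. By GENCODE 44, the stretches of LAMP1, NEU1, MCOLN1 and ATP6V0D1 lie outside the gene, those of CD63 and CTSF in an intron and those of CTSA, CTSD and GAA in exons of transcripts that start further upstream than the RefSeq start site. The longer palindrome surrounds the core in LAMP1, CTSA, GAA, MCOLN1 and ATP6V0D1. LAMP1 held the core 6 times in its promoter, more often than the other members. CTSA, CTSF, GAA and MCOLN1 held it 2 times each.

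**Figure D1:**
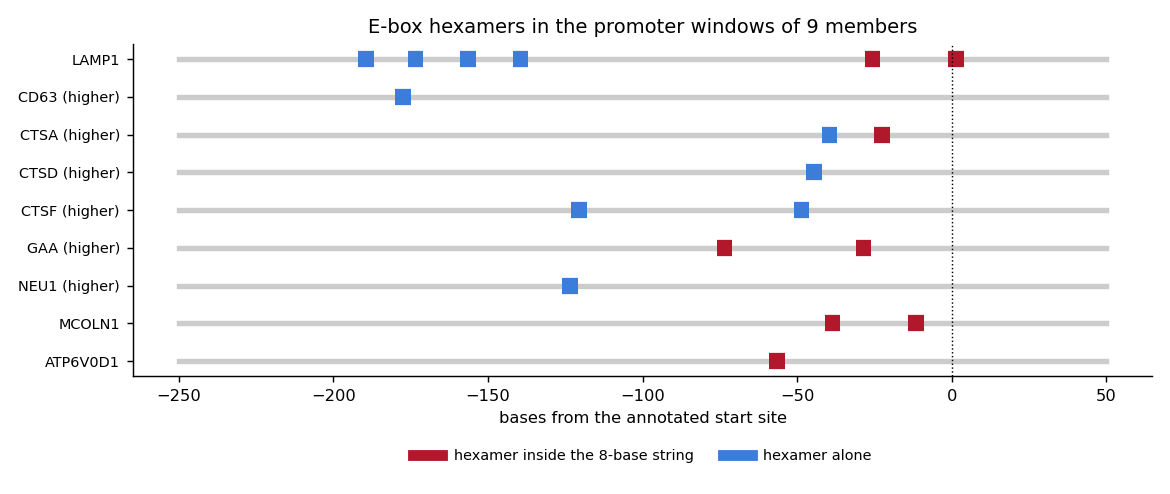
Positions of the E-box core in the RefSeq promoter windows of the 9 members that hold it. The horizontal axis gives bases from the annotated start site (dotted line), red blocks are cores inside the longer palindrome, blue blocks are cores alone, and "higher" marks the 6 members that passed the test in siYAP+TAZ. LAMP1 has 6 cores, and all cores begin upstream of the start site.

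Both siRNA targets were lower in the libraries labelled with their siRNA, but not evenly. YAP1 had 4431, 4333 and 4202 normalised counts in siControl, 1013, 2764 and 761 in siYAP and 2240, 2202 and 1796 in siYAP+TAZ, so that siYAP library 23 kept more YAP1 than any siYAP+TAZ library. WWTR1 had 1995, 1850 and 1579 normalised counts in siControl, 828, 254 and 521 in siTAZ and 1133, 1123 and 1284 in siYAP+TAZ. A normalised count is the number of reads on a gene divided by the effective size of its library (TMM) and set to the mean size of the 15 libraries. By edgeR's quasi-likelihood test, siTAZ against siControl gave WWTR1 a log2 fold change of -1.74 ± 0.31 (SE; adjusted p = 0.0187), and siYAP gave YAP1 one of -1.51 ± 0.37 (adjusted p = 0.0992). Against siControl, siYAP+TAZ had -1.06 ± 0.37 for YAP1 (adjusted p = 0.0723) and -0.62 ± 0.30 for WWTR1 (adjusted p = 0.199). The paper reported both targets as efficiently lowered in this line by RT-qPCR and Western blot. It also listed YAP1 among the molecules that fell in its own RNA and protein results.

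Library totals ran from 18696737 to 30107312 counts. The members took between 0.439% and 0.632% of the counts. Of the 5 markers of this mesenchymal line, VIM had 24540 to 33934 normalised counts. The summed level of the 5 was 100836 to 107868 normalised counts in siControl and 87356 to 95685 in siYAP+TAZ, with AXL and CAV1 lower by the test, while VIM, CD44 and SPARC had estimates above 0 (0.10, 0.14 and 0.55 on the log2 scale) that did not pass. Summed over 3 of 5 luminal markers, the level was 6369 to 8120 in Control and 6776 to 7025 in siControl. It was 8681 to 9064 in siYAP, 7705 to 9110 in siTAZ and 9092 to 12353 in siYAP+TAZ. In siYAP+TAZ KRT19 was higher by the test (0.77), while EPCAM and GATA3 had estimates below 0 (-0.13 and -0.20) that did not pass. The summed level of 3 of 6 leukocyte markers was 46.1 to 73 normalised counts in siControl, 117 to 134 in siYAP, 94.7 to 148 in siTAZ and 205 to 218 in siYAP+TAZ, while the other 3 were not analysed here. This rise came from CSF1R, with 172, 167 and 176 normalised counts in siYAP+TAZ, and CD14, with 45.2, 34.4 and 35.8, whereas PTPRC, the pan-leukocyte surface marker, had between 0 and 5.1 in all 15 libraries. The part of all these markers in the results below was not tested. In bulk RNA, a change in the number of cells of a type and a change in RNA per cell cannot be told apart.

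In siControl the 40 members covered a wide range of levels per transcript length. CTSD, an aspartic protease, led with 280 ± 5.74 RPKM (reads per kilobase of transcript, scaled by library size; SD, n = 3), followed by CD63 with 240 ± 4.79, PSAP with 227 ± 20.9, CTSZ with 164 ± 6.10 and GRN with 162 ± 3.96. CD63 and PSAP overlapped between libraries, as did CTSZ and GRN. TFE3, at 66.0 ± 8.06, was far above its relative TFEB, at 2.99 ± 0.933. At the low end were CTSV, with 0.586 ± 0.125, and CTSK, the collagenolytic cathepsin of osteoclasts, with 0.479 ± 0.0854, and these neighbours overlapped as well. Lengths were those of the canonical transcript in GENCODE 44. Much of IDS (90.7% of exon bases) and CTSD (62.1%) is shared with an overlapping gene model on the same strand. Smaller parts are shared in MAN2B1 (35.7%), TPP1 (19%), HEXA (12.9%), NPC2 (8.77%), MCOLN1 (8.4%) and GLB1 (5.39%). Part of the reads of these members may have been assigned elsewhere.

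**Figure D2:**
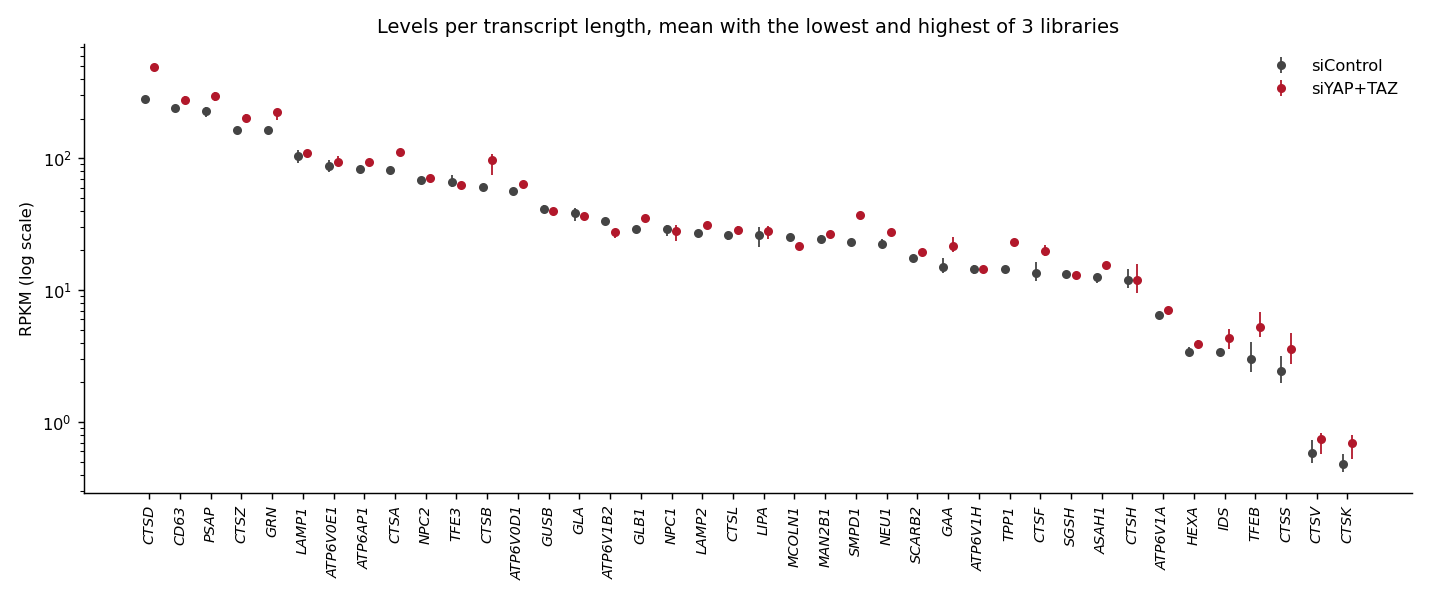
Levels of the 40 members in siControl (grey) and siYAP+TAZ (red), in RPKM of the canonical transcript, on a log scale. Points are means and bars run from the lowest to the highest of 3 libraries; CTSD is the most abundant member in both groups, and CTSK and CTSV are the least abundant.

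Co-knockdown was compared with siControl to ask whether siRNAs against both YAP and TAZ, here with a partial lowering of both targets that did not pass the test, changed the RNA of lysosomal genes. In siYAP+TAZ, 16 of the 40 members passed the test (adjusted p of at most 0.05 over all genes), and all 16 were higher. Over all genes 18.4% passed, 9.97% being higher and 8.39% lower. An unadjusted p under 0.05 was found for 22 members and for 5709 of the 18858 genes. The changes were small. None of the members reached the fold limit of the study, which is 1 on the log2 scale in either direction. Of all genes, 3.46% passed the test and this limit together. The median log2 fold change of the members was 0.19, against -0.0048 over all genes, and their estimates ran from -0.28 for ATP6V1B2 to 0.83 for TFEB. Without overlap between the groups, 23 members were higher and 2 were lower, against 18.2% of all genes higher and 18.2% lower. Because abundant genes pass more often, the count is also given for genes at a mean of at least 100 normalised counts. All 16 members that passed are among the 38 members at that level, where 26.7% of 10640 genes passed and 12.5% passed as higher.

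Summed over the 40 members, the siControl libraries held 114294, 112129 and 113359 normalised counts and the siYAP+TAZ libraries 145633, 146615 and 136697. No siYAP+TAZ library reached down to a siControl library. The sums were 123478, 121708 and 118880 in siYAP and 128181, 130766 and 122357 in siTAZ, also above siControl. Control spread more widely, with 123566, 113678 and 110010. Libraries numbered 26 to 30 differed in level from the others for several members, with CTSB lowest there in all 5 groups and TFEB highest there in every group but siTAZ. Set against the siControl library of the same run of numbers (16 to 20, 21 to 25, 26 to 30), 28 of the 40 members were higher in siYAP+TAZ in each of the 3 runs and 4 were lower in each, against 27.6% and 28.7% of all genes. The same count was 20 higher and 5 lower in siYAP, against 20.2% and 21.5% of all genes, and 18 higher and 4 lower in siTAZ, against 22% and 21%. The paper describes 3 independent sets of experiments, and each run holds a library of every group. The labels do not say whether these runs are those sets.

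**Figure D3:**
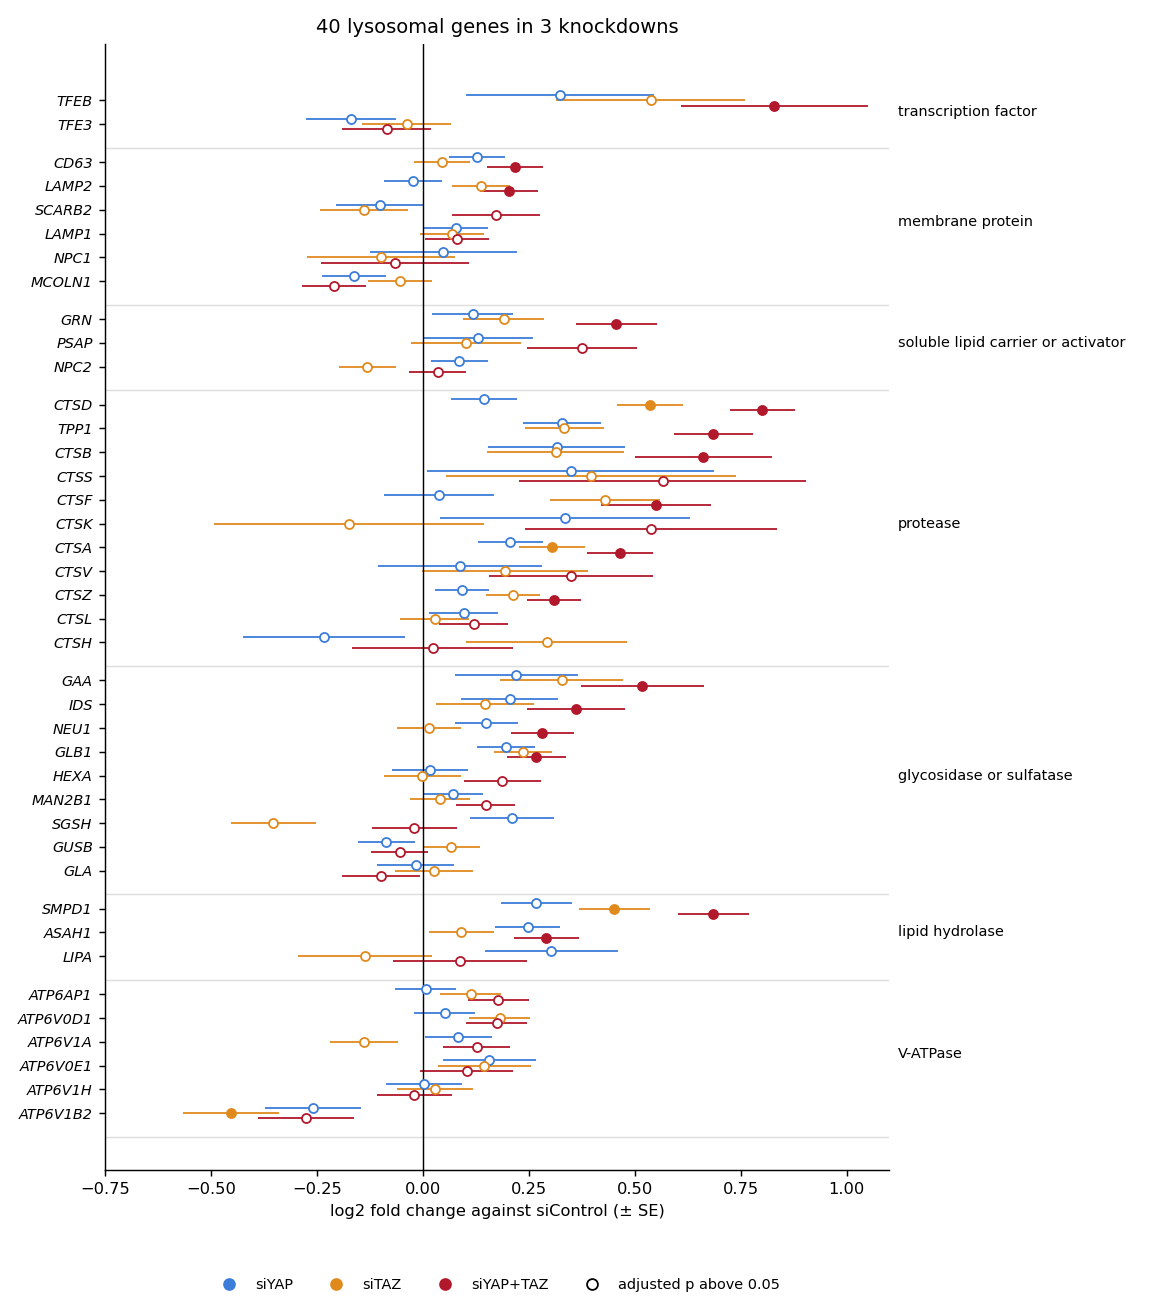
Log2 fold changes of the 40 members against siControl in siYAP (blue), siTAZ (orange) and siYAP+TAZ (red), grouped by role. Bars are ± 1 SE from edgeR's quasi-likelihood fit over 15 libraries and open circles have an adjusted p above 0.05; in siYAP+TAZ all 16 filled points lie to the right of 0, 6 of them proteases and none of the V-ATPase.

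Of the transcription factors, TFEB rose and TFE3 did not pass. TFEB had 139, 131 and 224 normalised counts in siControl and 251, 246 and 374 in siYAP+TAZ. Its libraries did not overlap between the groups, although the highest siControl library came near the lowest of siYAP+TAZ. The log2 fold change of TFEB was 0.83 ± 0.22 (1.78-fold, edgeR, adjusted p = 0.0148), the largest estimate among the members. Within the runs of library numbers the TFEB ratio was 1.80, 1.87 and 1.67. The call for TFEB was lost without siControl library 17 (adjusted p = 0.0706), siControl library 22 (0.074) or siYAP+TAZ library 30 (0.075). TFE3 had 4694, 4865 and 5855 normalised counts in siControl and 4601, 4801 and 5117 in siYAP+TAZ, with a log2 fold change of -0.09 ± 0.11 (edgeR, adjusted p = 0.639).

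Proteases contributed more of the calls than any other role. In siYAP+TAZ 6 of the 11 rose, namely CTSA, CTSB, CTSD, CTSF, CTSZ and TPP1, and the estimates of all 11 were above 0, with a median of 0.54. CTSD, which encodes the main aspartic protease of lysosomes, had 13531, 13384 and 13923 normalised counts in siControl and 25012, 23757 and 22379 in siYAP+TAZ. Its siYAP+TAZ libraries all lay far above siControl, with a log2 fold change of 0.80 ± 0.08 (1.74-fold, edgeR, adjusted p = 1.86e-06). TPP1, a tripeptidyl peptidase, had 1159, 1228 and 1217 normalised counts in siControl and 2008, 1979 and 1806 in siYAP+TAZ. It rose 1.61-fold, by 0.68 ± 0.09 on the log2 scale (edgeR, adjusted p = 5.51e-05), again with wide separation.

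CTSB, a cysteine protease that is also secreted by tumour cells, had 5585, 5564 and 5011 normalised counts in siControl and 9378, 9547 and 6632 in siYAP+TAZ. The third siYAP+TAZ library was well below the other two, but still above siControl, and the log2 fold change was 0.66 ± 0.16 (1.58-fold, edgeR, adjusted p = 0.011). CTSF, another cysteine cathepsin, had 602, 571 and 790 normalised counts in siControl and 879, 929 and 1057 in siYAP+TAZ. The gap between the groups was narrow for CTSF, with a log2 fold change of 0.55 ± 0.13 (edgeR, adjusted p = 0.00615).

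CTSA, the carboxypeptidase that protects beta-galactosidase and neuraminidase, had 3661, 3520 and 3501 normalised counts in siControl and 5073, 5070 and 4604 in siYAP+TAZ. It rose by 0.47 ± 0.08 on the log2 scale (edgeR, adjusted p = 0.000365), and 24.1% of its exon bases overlap genes on the opposite strand. Whether the authors counted by strand is not stated. CTSZ, a carboxypeptidase of the cysteine class, had 5679, 5736 and 6080 normalised counts in siControl and 6830, 7753 and 7085 in siYAP+TAZ, a smaller rise of 0.31 ± 0.06 (edgeR, adjusted p = 0.00235). The other 5 proteases were CTSH, CTSK, CTSL, CTSS and CTSV. Their log2 fold changes lay between 0.02 for CTSH and 0.57 for CTSS, and each overlapped between the groups. CTSS passed, as higher, only with the run of library numbers as a block, and its ratio within the runs was 1.29, 1.62 and 1.49. CTSL, the broad endopeptidase, had 1067, 1081 and 939 normalised counts in siControl and 1068, 1189 and 1097 in siYAP+TAZ.

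The glycan-degrading enzymes were divided. GAA, GLB1, NEU1 and IDS rose, 4 of 9, and the other 5 (GLA, GUSB, HEXA, MAN2B1 and SGSH) had log2 fold changes between -0.10 and 0.19. GAA, the acid alpha-glucosidase that degrades glycogen, had 1204, 1257 and 1562 normalised counts in siControl and 1737, 1777 and 2234 in siYAP+TAZ. The libraries separated by run as well as by treatment, and the log2 fold change of GAA was 0.52 ± 0.15 (edgeR, adjusted p = 0.0209). Left out singly, siControl library 17, siControl library 22 and siYAP+TAZ library 30 each moved GAA out of the calls (adjusted p = 0.0914, 0.0804 and 0.0955), and so did Control in place of siControl (adjusted p = 0.0612).

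GLB1, the acid beta-galactosidase, had 1776, 1753 and 1710 normalised counts in siControl and 2139, 2057 and 2111 in siYAP+TAZ. The shift was small and tight, 0.27 ± 0.07 on the log2 scale (edgeR, adjusted p = 0.0104). NEU1, the sialidase that works in a complex with CTSA and GLB1, had 1934, 1665 and 1766 normalised counts in siControl and 2224, 2050 and 2245 in siYAP+TAZ. Its log2 fold change was 0.28 ± 0.07 (edgeR, adjusted p = 0.0122), and 0.0766 was the adjusted p without siControl library 22. IDS, which removes sulfate from dermatan and heparan sulfate, had 636, 611 and 573 normalised counts in siControl and 904, 796 and 641 in siYAP+TAZ. The lowest siYAP+TAZ library nearly met the highest of siControl for IDS (0.36 ± 0.12, edgeR, adjusted p = 0.0361). The call for IDS was lost without any of siControl libraries 17, 22 and 27 or siYAP+TAZ libraries 20 and 25 (adjusted p from 0.0538 to 0.205), and also with limma-voom (adjusted p = 0.0538).

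Among the lipid hydrolases, SMPD1 and ASAH1 rose and LIPA did not pass. SMPD1, acid sphingomyelinase, had 1307, 1281 and 1374 normalised counts in siControl and 2087, 2134 and 2148 in siYAP+TAZ. The 3 libraries of each group lay close together and far from the other group, with a log2 fold change of 0.69 ± 0.08 (1.61-fold, edgeR, adjusted p = 2.33e-05). ASAH1, acid ceramidase, which cleaves the ceramide that SMPD1 forms, had 879, 872 and 741 normalised counts in siControl and 1004, 994 and 1052 in siYAP+TAZ. Its log2 fold change was 0.29 ± 0.08 (edgeR, adjusted p = 0.0122), and the adjusted p was 0.0688 without siControl library 27. LIPA, the acid lipase of cholesteryl esters, had 1775, 1623 and 1248 normalised counts in siControl and 1796, 1693 and 1453 in siYAP+TAZ, and the groups overlapped.

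Of the soluble carriers and activators, GRN rose. GRN, which encodes progranulin, a glycoprotein that supports lysosomal enzymes, had 8276, 8312 and 7949 normalised counts in siControl and 11891, 11917 and 9845 in siYAP+TAZ, all above siControl, with a log2 fold change of 0.46 ± 0.10 (edgeR, adjusted p = 0.00261). PSAP, the precursor of the saposins, had 15863, 15159 and 13235 normalised counts in siControl and 19092, 20499 and 17777 in siYAP+TAZ. Its libraries did not overlap either, but its log2 fold change of 0.37 ± 0.13 missed the threshold (edgeR, adjusted p = 0.0554). PSAP passed under 6 of the 16 alternatives, namely both filters on low counts, DESeq2, limma-voom, the run of library numbers as a block and only the 2 groups in the fit. NPC2, a cholesterol carrier of the lumen, had an estimate of 0.03 ± 0.07.

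Membrane proteins moved little. CD63, a tetraspanin of late endosomes and exosomes, had 5932, 5723 and 5741 normalised counts in siControl and 7139, 6743 and 6333 in siYAP+TAZ. LAMP2 had 4070, 4007 and 4453 normalised counts in siControl and 4702, 4667 and 5053 in siYAP+TAZ. Both passed narrowly, CD63 at 0.22 ± 0.07 (edgeR, adjusted p = 0.0267) and LAMP2 at 0.20 ± 0.07 (edgeR, adjusted p = 0.045). Omitting 1 library ended the CD63 call for siYAP+TAZ 20 and 25 and siControl 22 and 27, and the LAMP2 call for siControl 17 and 22 and siYAP+TAZ 20, 25 and 30 (adjusted p from 0.0614 to 0.168). LAMP2 also missed the threshold with only the 2 groups in the fit (adjusted p = 0.0509). LAMP1, with the E-box core 6 times in its promoter, had 6575, 5918 and 7394 normalised counts in siControl and 7070, 7052 and 6900 in siYAP+TAZ, an estimate of 0.08 ± 0.08. MCOLN1, the calcium channel of lysosomes, had 1251, 1214 and 1262 normalised counts in siControl and 1086, 1082 and 1054 in siYAP+TAZ. MCOLN1 was lower without overlap, but with a log2 fold change of -0.21 ± 0.08 it did not pass (edgeR, adjusted p = 0.0618). It did pass, as lower, with the run of library numbers as a block. In Control MCOLN1 had 1032, 1055 and 1231 normalised counts, which overlapped siYAP+TAZ.

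None of the 6 V-ATPase members passed in siYAP+TAZ, but this depended on the setting. With the run of library numbers as a block, ATP6V1B2 passed as lower and ATP6V0D1 and ATP6AP1 as higher, and ATP6V1B2 also passed with only the 2 groups in the fit, ATP6V0D1 with library size only, and ATP6V0D1 and ATP6V1A with Control in place of siControl. Their log2 fold changes ran from -0.28 to 0.18, with a median of 0.11, and 3 of the 6 had an unadjusted p under 0.05. ATP6V1B2, a B subunit of the catalytic sector, had 2199, 2161 and 2369 normalised counts in siControl and 1668, 1943 and 1937 in siYAP+TAZ. It was lower without overlap (-0.28 ± 0.11, edgeR, adjusted p = 0.103). In Control it had 1898, 2013 and 2314, which overlapped siYAP+TAZ. ATP6V0D1, of the membrane sector, and ATP6AP1, an accessory subunit, were higher without overlap, at 0.17 ± 0.07 and 0.18 ± 0.07 (edgeR, adjusted p = 0.108 and 0.0981).

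**Figure D4:**
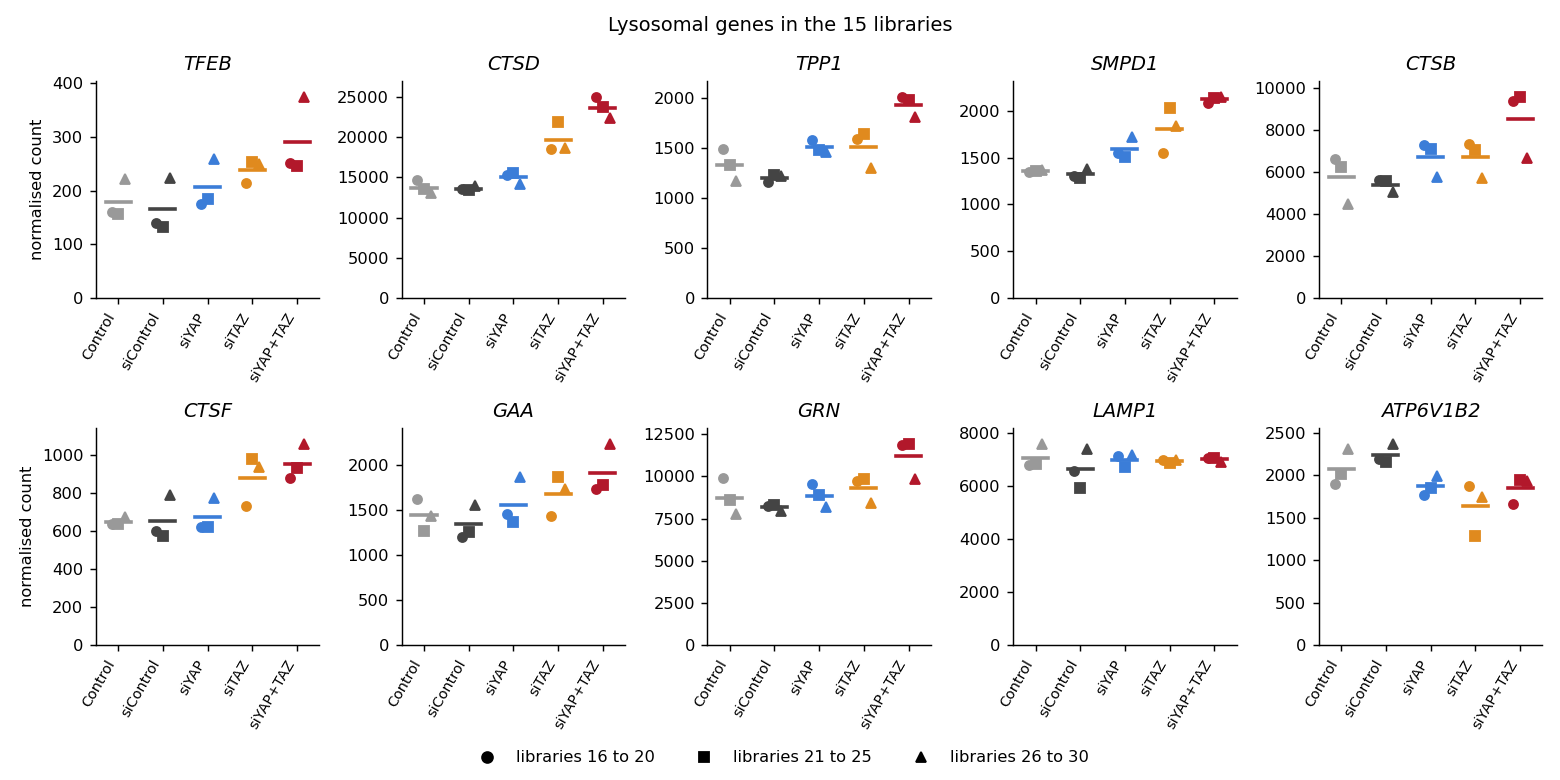
Normalised counts of 10 members in the 15 libraries, by group; each point is a library, its shape gives the run of library numbers, and horizontal lines are group means. The axis of each panel starts at 0. CTSD, TPP1 and SMPD1 separate siYAP+TAZ from siControl most clearly, and LAMP1 overlaps. The mean of ATP6V1B2 is below siControl in each knockdown, but it passed in siTAZ only, and Control overlaps siYAP and siYAP+TAZ.

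Of the 16 calls in siYAP+TAZ, 9 held under all 16 alternative settings and left-out libraries. These were CTSA, CTSB, CTSD, CTSF, CTSZ, TPP1, GLB1, SMPD1 and GRN. The number of members passing fell to 10, all higher, without siControl library 22, where TFEB, LAMP2, CD63, GAA, NEU1 and IDS were lost and 13.3% of all genes passed. With the run of library numbers as a block it was 22, 20 higher and 2 lower, while 28.6% of all genes passed. Of the members that passed, 13 had a matched promoter and 6 of these held the E-box core. Among the members that did not pass, 3 of 15 held it. The longer palindrome was found in 2 of the 13 and in 3 of the 15, and neither difference was tested.

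The single knockdowns were compared with siControl to separate the share of each factor. In siYAP none of the 40 members passed in edgeR's test, 8 had an unadjusted p under 0.05, as did 2241 of all 18858 genes, and DESeq2 and limma-voom also gave 0. Over all genes, 0.933% passed in siYAP, 0.477% higher and 0.456% lower. The median log2 fold change of the members was 0.09, against 0.0025 over all genes. Of the members, 32 estimates were above 0, as were 9524 of all 18858 genes. The closest members were TPP1, at 0.33 ± 0.09 (edgeR, adjusted p = 0.11), and ASAH1, at 0.25 ± 0.08 (edgeR, adjusted p = 0.149). TPP1 had 1582, 1483 and 1457 normalised counts in siYAP, above all of siControl. With the run of library numbers as a block, 6 members passed as higher, namely CTSA, CTSB, TPP1, ASAH1, LIPA and SMPD1, while 6.1% of all genes passed. Leaving out siYAP library 23, with its high YAP1, still gave 0 members.

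In siTAZ 4 of the 40 members passed, 3 higher and 1 lower, against 2.03% of all genes, 1.34% higher and 0.695% lower. CTSD had 18559, 21899 and 18722 normalised counts in siTAZ, all above siControl and below siYAP+TAZ, and rose by 0.54 ± 0.08 on the log2 scale (edgeR, adjusted p = 0.00277). SMPD1, with 1546, 2034 and 1842 normalised counts, rose by 0.45 ± 0.08 (edgeR, adjusted p = 0.00941). CTSA, with 4362, 4874 and 3955, rose by 0.30 ± 0.08 (edgeR, adjusted p = 0.0477). ATP6V1B2 was the member that fell in siTAZ. It had 1876, 1281 and 1749 normalised counts, with a log2 fold change of -0.45 ± 0.11 (edgeR, adjusted p = 0.0472), and siTAZ library 24 was the lowest of the 15. TFEB had 214, 253 and 249 normalised counts in siTAZ, overlapping siControl, at 0.54 ± 0.22 (edgeR, adjusted p = 0.242). TFEB passed in siTAZ, as higher, only with the run of library numbers as a block, and its ratio within the runs was 1.53, 1.93 and 1.11. TFE3 did not pass in either single knockdown, at -0.17 ± 0.11 in siYAP and -0.04 ± 0.11 in siTAZ (edgeR, adjusted p = 0.575 and 0.903).

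The call for CTSD in siTAZ held under all 16 alternatives, and those for CTSA, SMPD1 and ATP6V1B2 did not. ATP6V1B2 was lost in 8 of the 16, with Control in place of siControl among them. Without siControl library 17, siControl library 22 or siTAZ library 24, only CTSD remained, while 0.361% to 0.658% of all genes passed; only CTSD was left also with only the 2 groups in the fit. Without siTAZ library 19, 6 members passed, with GLB1 and CTSF gained as higher and SGSH as lower and CTSA lost, while the share of all genes rose to 4.78%. With the run of library numbers as a block 13 members passed, 11 of them higher, while 10.3% of all genes passed. DESeq2 gave 8 members in siTAZ, 6 higher and 2 lower, while 4.25% of all genes passed. It gained GLB1, TPP1 and CTSZ as higher and SGSH as lower. Between the control groups, siControl against Control, no member passed, where 0% of all genes passed in edgeR's test, DESeq2 and limma-voom, and 2 members and 398 genes had an unadjusted p under 0.05.

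By their estimates, the targets were lowered less in siYAP+TAZ than in the single knockdowns, with YAP1 at 0.45 ± 0.37 against siYAP and WWTR1 at 1.13 ± 0.31 against siTAZ, neither of which passed (edgeR, adjusted p = 0.566 and 0.0648). Depth of knockdown therefore cannot be told apart from the co-knockdown in the comparisons between knockdowns or in the interaction. Direct comparisons between the knockdowns gave few members, and more with the run of library numbers as a block. Against siYAP, siYAP+TAZ was higher in CTSD, CTSF, SMPD1, TPP1 and GRN, 5 of 40, where 5.13% of all genes passed. The largest of these was CTSD, at 0.66 ± 0.08 (edgeR, adjusted p = 8.52e-05), with 15308, 15578 and 14217 normalised counts in siYAP. CTSD and SMPD1 remained without siYAP library 23, and CTSF, TPP1 and GRN were lost; the same 2 were left without siYAP library 18 or siYAP+TAZ library 25. Without siYAP+TAZ library 20 or siYAP library 28, CTSD, CTSF and SMPD1 were left, and CTSF alone was lost without siYAP+TAZ library 30. GRN was also lost with library size only, both filters on low counts, no robust estimation and only the 2 groups in the fit, 10 of 15 alternatives in all, and TPP1 also with library size only. CTSZ was gained as higher in 5 of the 15. The run of library numbers as a block gave 13 members, 12 higher and 1 lower, while 14.6% of all genes passed. Against siTAZ, siYAP+TAZ was higher in TPP1 (0.35 ± 0.09, edgeR, adjusted p = 0.0329) and NEU1 (0.27 ± 0.07, edgeR, adjusted p = 0.0438), 2 of 40, where 5.44% of all genes passed. NEU1 had 1824, 1670 and 1924 normalised counts in siTAZ. Neither passed without siYAP+TAZ library 20 or 25 or siTAZ library 29, and NEU1 was lost without any of the 6 libraries compared. Both were also lost with only the 2 groups in the fit. CTSD missed the threshold here (0.27 ± 0.08, edgeR, adjusted p = 0.0509) but passed as higher in 9 of 15 alternatives, namely DESeq2 size factors, library size only, both filters, DESeq2, limma-voom, the block and without siTAZ library 24 or siYAP+TAZ library 30. ATP6V1A was gained as higher in 5 of the 15. With the block 12 members passed, 11 of them higher, while 14.8% of all genes passed.

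The single knockdowns differed from each other in CTSD and SGSH, 2 of 40, where 0.642% of all genes passed. CTSD was lower in siYAP than in siTAZ (-0.39 ± 0.08, edgeR, adjusted p = 0.0292). SGSH, the sulfamidase that degrades heparan sulfate, had 1061, 882 and 1015 normalised counts in siYAP and 766, 573 and 658 in siTAZ, and was higher in siYAP by 0.56 ± 0.10 (edgeR, adjusted p = 0.0201). In siControl SGSH had 865, 793 and 900, with a mean between those of the knockdowns, and siYAP library 23 fell within this range. Neither knockdown passed for SGSH against siControl, but siTAZ passed as lower in 4 of 16 alternatives. The calls for CTSD and SGSH between siYAP and siTAZ were both lost without siYAP library 18 or 28 or siTAZ library 24 or 29. Both were also lost with only the 2 groups in the fit, and CTSD with library size only. The run of library numbers as a block gave 6 members, 3 higher and 3 lower in siYAP, while 7.32% of all genes passed. The interaction of siYAP and siTAZ asks whether the co-knockdown differed from the sum of the single log2 changes. No member passed for it, where 0.0106% of all genes passed in edgeR's test, 2 members and 1104 genes had an unadjusted p under 0.05, and DESeq2 and limma-voom also gave 0 members. The 2 members were SCARB2, the receptor that carries beta-glucocerebrosidase, at 0.41 ± 0.15 (edgeR, adjusted p = 0.682), and ATP6V1B2, at 0.44 ± 0.16 (edgeR, adjusted p = 0.723).

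Further lysosomal genes were read from lists of the same pathway, which were chosen with earlier results of these data known. Of 33 other hydrolases and their modifiers, 17 were higher and 1 lower in siYAP+TAZ, against 9.97% and 8.39% of all genes, with a median log2 fold change of 0.32. CTSO, a cysteine cathepsin, had 69.7, 75.8 and 77.2 normalised counts in siControl and 166, 186 and 219 in siYAP+TAZ, a rise of 1.36 ± 0.16 on the log2 scale (edgeR, adjusted p = 1.61e-05). SUMF1, which activates sulfatases such as IDS and SGSH, had 297, 294 and 330 in siControl and 411, 436 and 474 in siYAP+TAZ (0.52 ± 0.09, edgeR, adjusted p = 0.000563). The 17 include ACP5, which is listed at 0 in the siControl libraries and at 7.13 normalised counts or less in siYAP+TAZ.

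Of 28 other membrane proteins and transporters, 7 were higher and 1 lower, where 9.97% of all genes were higher and 8.39% lower. LAPTM5, a lysosomal membrane protein of blood cells, rose in siYAP+TAZ from 674, 727 and 783 normalised counts in siControl to 1718, 1679 and 1693 (1.22 ± 0.08, edgeR, adjusted p = 1.97e-08), and it also passed in siYAP at 0.62 ± 0.08 (edgeR, adjusted p = 0.00128). The leukocyte markers CD14 (1.20 ± 0.24) and CSF1R (2.09 ± 0.22) moved in the same direction in siYAP+TAZ (edgeR, adjusted p = 0.00197 and 3.93e-06), and their part in the LAPTM5 result was not tested. ABCB9, a peptide transporter of lysosomes, had 383, 449 and 343 normalised counts in siControl and 707, 727 and 635 in siYAP+TAZ (0.81 ± 0.11, edgeR, adjusted p = 6.98e-05).

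The 17 further V-ATPase subunits gave 1 higher and 1 lower, below the share of all genes, with a median log2 fold change of 0.01. ATP6V0A4, an a subunit known from kidney, fell from 327, 285 and 380 normalised counts in siControl to 178, 179 and 139 in siYAP+TAZ (-0.997 ± 0.166, edgeR, adjusted p = 0.000385), and it fell in siYAP too (-0.92 ± 0.16, edgeR, adjusted p = 0.0104). ATP6V1G2 rose at low counts, from 5.95, 7.40 and 3.22 to 14.3, 10.7 and 15.6 (1.26 ± 0.41, edgeR, adjusted p = 0.039). Of 22 genes that sort proteins to the lysosome, 3 were higher, VPS39 and VPS41 of the HOPS tethering complex among them (0.50 ± 0.09 and 0.30 ± 0.08, edgeR, adjusted p = 0.00101 and 0.0159), and 1 was lower, a share close to the 18.4% of all genes that passed. Of 21 relatives of TFEB and genes of mTORC1 signalling at the lysosome, RRAGA was higher (0.34 ± 0.08, edgeR, adjusted p = 0.00659) and RHEB, the GTPase that activates mTORC1, was lower (-0.27 ± 0.08, edgeR, adjusted p = 0.0282). These 2 of 21 are a smaller share than the 18.4% of all genes.

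**Figure D5:**
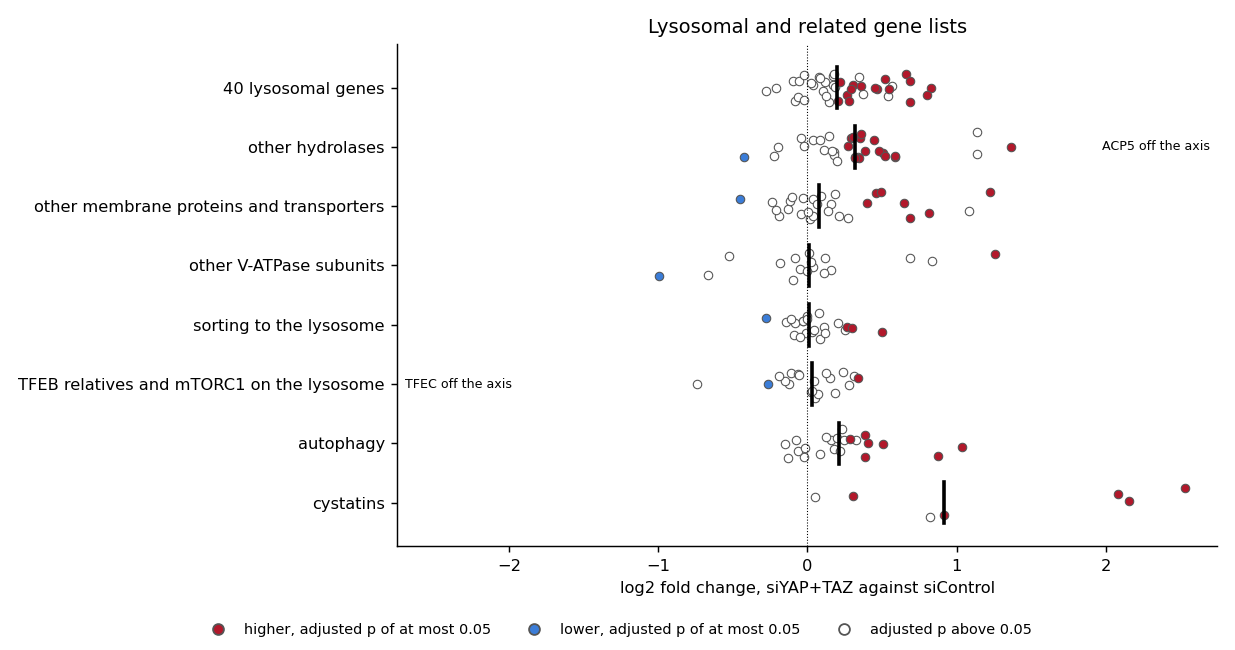
Log2 fold changes in siYAP+TAZ against siControl for the 40 members and 7 related lists; each point is a gene, coloured where its adjusted p was at most 0.05, and black lines are list medians. The medians of the 40 members (0.19) and of the other hydrolases (0.32) lie to the right of 0, while those of the other V-ATPase subunits (0.01) and of sorting to the lysosome (0.01) lie at 0; TFEC and ACP5, at very low counts, are off the axis.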

How the data were processed

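Expression in MDA-MB-231 was read from 15 libraries, 3 for each of 5 groups taken from the sample titles. The authors made polyadenylated RNA libraries, trimmed the reads with cutadapt in the UTAP pipeline, aligned them with STAR 2.4.2a to GRCh38 with GENCODE annotation, and deposited raw read counts per gene. Whether counting used the strand is not stated. The deposited table also holds size-factor normalised values, rlog values and the authors' DESeq2 comparisons (fold changes, p-values and calls), which were not used.

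Raw counts of all 18858 genes were normalised by TMM. The test was that of edgeR 4.0.16, run in R 4.3.3 (quasi-likelihood F-test, robust, 1 coefficient per group, 15 libraries in the fit), with Benjamini-Hochberg adjustment over all genes. A gene passed at an adjusted p of at most 0.05. The SE is the log2 fold change divided by the square root of F. Totals of 18696737 to 30107312 counts limit precision mainly for genes with few counts, such as CTSK and ATP6V1G2. The tests were also tried on simulated data, which were drawn without differences between the runs of library numbers. Levels per length used canonical transcripts of GENCODE 44, and promoters came from RefSeq (GRCh38.p14).

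Alternatives were DESeq2 1.42.0, limma-voom (limma 3.58.1), other size factors, filters on low counts, no robust estimation, only the groups compared in the fit, Control as the reference, the run of library numbers as a block, and each library left out. The members and lists were chosen with earlier results of these data known. Values by library were given for TFEB, TFE3 and members that passed against siControl, and up to 2 genes per further list by the smallest adjusted p; values of other named members were chosen after they were seen.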

Additional observations from a re-analysis of the deposited data

Results flagged for a closer look

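Groups of 3 libraries are too small to test for a single library that stands apart. The following members differed between knockdowns by the test of the difference itself (edgeR, adjusted over all genes), as log2 differences. Between siYAP+TAZ and siYAP these were CTSD (0.66, adjusted p = 8.52e-05), CTSF (0.51, adjusted p = 0.0278), SMPD1 (0.42, adjusted p = 0.00662), TPP1 (0.36, adjusted p = 0.03) and GRN (0.34, adjusted p = 0.0471), all higher in the co-knockdown. They are 5 of 40 members, where 5.13% of all genes passed. Between siYAP+TAZ and siTAZ they were NEU1 (0.27, adjusted p = 0.0438) and TPP1 (0.35, adjusted p = 0.0329), also higher in the co-knockdown. These 2 of 40 are no larger a share than the 5.44% of all genes that passed. Between siYAP and siTAZ they were CTSD (-0.39, adjusted p = 0.0292), which was lower in siYAP, and SGSH (0.56, adjusted p = 0.0201), which was higher in siYAP. Here 0.642% of all genes passed. Of all these calls, only CTSD and SMPD1 in siYAP+TAZ against siYAP were not lost in any alternative.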

How the results depend on the processing

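The 16 members passing in siYAP+TAZ against siControl became 16 to 22 (20 higher and 2 lower with the block) under the settings that kept all libraries and 10 to 13 with 1 library left out. With the run of library numbers as a block, which the labels do not define, the counts were 6 in siYAP, 13 in siTAZ, 13 in siYAP+TAZ against siYAP, 12 against siTAZ and 6 in siYAP against siTAZ, where 6.1%, 10.3%, 14.6%, 14.8% and 7.32% of all genes passed. Deviations from group means correlated with a median r of 0.185 within runs (-0.026 to 0.35, 30 pairs) and -0.116 between runs. DESeq2 gave 8 in siTAZ, 8 against siYAP and 5 against siTAZ. Library size only gave 3 against siYAP, 4 against siTAZ and 1 in siYAP against siTAZ. Both filters on low counts gave 4 against siTAZ. No robust estimation gave 2 in siTAZ, only the groups compared gave 1 in siTAZ, 0 against siTAZ and 0 in siYAP against siTAZ, and Control as the reference gave 1 in siYAP. With 1 library left out, the counts were 0 in siYAP, 1 to 6 in siTAZ, 2 to 4 against siYAP, 0 to 3 against siTAZ and 0 to 3 in siYAP against siTAZ. The estimate of TFE3, which passed nowhere, ranged from -0.1417 to 0.0182 in siYAP+TAZ and from -0.1031 to 0.0649 in siTAZ with 1 library left out, with the sign turned without siControl library 27 in both and without siTAZ library 19 (0.0021) in siTAZ. The interaction and siControl against Control stayed at 0 members. The causes were not tested. The groups share no replicate numbers in the labels, so the runs served only as an alternative block.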

Other observations

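Genes of autophagy, which delivers cargo to the lysosome, were in part higher in siYAP+TAZ. The list was chosen with earlier results of these data known. Of 22 measured, 7 were higher and 0 lower in edgeR's test, against 9.97% of all genes higher and 8.39% lower. An unadjusted p under 0.05 was found for 12 of them and for 5709 of all 18858 genes, and the median log2 fold change was 0.21. ULK1, the kinase that starts autophagosome formation, had 538, 644 and 520 normalised counts in siControl and 1013, 981 and 1130 in siYAP+TAZ (0.88 ± 0.11, edgeR, adjusted p = 3.48e-05). GABARAPL1, an ATG8 family protein of autophagosomes, had 213, 184 and 137 in siControl and 339, 396 and 367 in siYAP+TAZ (1.04 ± 0.18, edgeR, adjusted p = 0.000686). In the single knockdowns ULK1 had 655, 625 and 647 normalised counts in siYAP and 666, 795 and 649 in siTAZ and did not pass.

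Cystatins inhibit cysteine cathepsins such as CTSB. Of 7 measured, from a list chosen in the same way, 5 were higher in siYAP+TAZ and 0 lower. This stands against the same shares of all genes, with a median log2 fold change of 0.91. CST3, the broadly secreted cystatin C, had 6125, 6018 and 7248 normalised counts in siControl and 13167, 12191 and 11182 in siYAP+TAZ (0.91 ± 0.09, edgeR, adjusted p = 2.03e-06). CST3 also passed in siTAZ at 0.42 ± 0.09 (edgeR, adjusted p = 0.0162). CST4, a salivary cystatin with close paralogs among which reads may be split, had 176, 193 and 192 normalised counts in siControl and 1251, 1209 and 788 in siYAP+TAZ (2.53 ± 0.16, edgeR, adjusted p = 1.97e-08).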
